A study of Lupinus albus with 12 samples.

Results

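The 8 genes described here belong to ethanol fermentation and the low-oxygen response of white lupin (Lupinus albus), a legume. They are 2 alcohol dehydrogenases, a pyruvate decarboxylase, a non-symbiotic hemoglobin, 3 genes named putative hypoxia induced protein and a cysteine dioxygenase, 8 of the 33388 genes in the deposited table. They were chosen by protein name and gene identifier, from a list drawn up with their fold changes against control already known, so those fold changes are a description and support nothing here. All 8 had enough reads to be tested, and 28980 genes were tested in all.

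The study asked which root transcripts respond to sucrose as a signal. Wild-type plants of the cultivar Amiga grew in hydroponic Hoagland solution, and sucrose was added to a final 10 mM. Sections of the root with their tips were frozen from untreated control plants at 0 min and from plants exposed for 20, 40 or 80 min, with 3 plants per group and 12 libraries of polyadenylated RNA in all. Each library is a single plant, so the replicates are separate plants. Controls were taken at 0 min only, so the time of exposure and the time since handling cannot be told apart.

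When oxygen runs short, plant cells rely on glycolysis for ATP and must return NAD+ to it. Pyruvate decarboxylase turns pyruvate into acetaldehyde, and alcohol dehydrogenase reduces the acetaldehyde to ethanol and gives back NAD+. Non-symbiotic hemoglobins bind oxygen tightly and help to remove nitric oxide in oxygen-poor roots. In Arabidopsis, thiol dioxygenases called plant cysteine oxidases use oxygen to mark ethylene response factors of group VII for breakdown, and these factors switch on fermentation genes when oxygen is low. In yeast and mammals, proteins of the hypoxia induced gene 1 family sit with the respiratory chain in the inner mitochondrial membrane.

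Libraries held 35050877 to 105299704 reads, with the fewest in 20 min replicate 2. Levels are given as CPM, reads scaled to library size with edgeR's TMM factors, and levels of different genes are set side by side only in the authors' FPKM, which also divides by transcript length. In a principal component analysis of all tested genes, the first component held 18.8% of the variance. On it 20 min replicate 2 lay at 156 and 80 min replicate 3 at 108, while the other plants of their groups lay between -145 and 10.6. In the 40 min group replicate 2 lay at 85.7 and the other plants at -20.1 and -10.7. Counts of calls are also given without 20 min replicate 2 and 80 min replicate 3, and without 40 min replicate 2 edgeR called 0 of the 8 genes in every comparison. A list of 9 genes with root terms in their names, 4 of the root cap and 5 homologs of ROOT HAIR DEFECTIVE 3, had reads for all 9 in every library, with summed levels of 494 to 620 CPM in controls, 356 to 445 CPM at 20 min and 314 to 518 CPM at 40 and 80 min. In RNA from whole sections, fewer cells of a type and less RNA per cell cannot be told apart.

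In control roots, alcohol dehydrogenase 1 was the most abundant of the 8, at 939 ± 310 FPKM (SD, n = 3), followed by pyruvate decarboxylase at 552 ± 195 FPKM. The hemoglobin averaged 243 ± 62.0 FPKM, the hypoxia induced protein on chromosome 8 211 ± 55.8 FPKM and the one on chromosome 2 113 ± 34.7 FPKM. The cysteine dioxygenase averaged 38.5 ± 14.3 FPKM, the second alcohol dehydrogenase 13.1 ± 1.44 FPKM and the hypoxia induced protein on chromosome 4 1.40 ± 0.688 FPKM. The control plants of neighbours in this order overlapped for the dehydrogenase and the decarboxylase and for the hemoglobin and the chromosome 8 gene, and for no other pair of neighbours. The 8 genes together took 0.0897% to 2.70% of all reads in a library.

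Pyruvate decarboxylase (Lalb_Chr01g0023181), which commits pyruvate to ethanol, had 2507, 2404 and 1190.5 CPM in control replicates 1, 2 and 3, 3513, 309 and 2527 CPM at 20 min, 282, 199.9 and 367 CPM at 40 min, and 703, 679 and 633 CPM at 80 min. At 20 min replicates 1 and 3 stood above every control plant in CPM and replicate 2 below every one, so the groups overlapped. Replicate 3 exceeded control replicate 1 by little in CPM, and in FPKM it stood below that control plant, at 655 against 706. At 40 and at 80 min all 3 plants stood below the lowest control. The log2 fold change against control was 0.06 at 20 min (SE 0.66), -2.85 at 40 min (SE 0.71) and -1.60 at 80 min (SE 0.68). The value at 20 min had no stable sign, at 0.50 without 20 min replicate 2, -0.52 without 20 min replicate 1 and below 0 under 9 of 18 alternative settings. The plants at 80 min were close together, with an SD of 0.077 on the log2 scale, smaller than in all but 3.40% of the genes tested.

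Alcohol dehydrogenase 1 (Lalb_Chr23g0271341), the next enzyme on the path to ethanol, had 3539, 2758 and 1833 CPM in control replicates 1, 2 and 3, 23824, 902 and 15682 CPM at 20 min, 486, 492 and 991 CPM at 40 min, and 1601, 810.1 and 721 CPM at 80 min. At 20 min replicates 1 and 3 stood 8.79 and 5.79 times above the control mean, while replicate 2 stood below all 3 controls at 0.333 of that mean. With 2.2% and 1.47% of all reads, it was the gene with the most reads in replicates 1 and 3 at 20 min, and it ranked 58 in replicate 2. All plants at 40 and at 80 min stood below the lowest control. Against control, its log2 fold change was 2.31 at 20 min (SE 0.88), -2.05 at 40 min (SE 0.87) and -1.38 at 80 min (SE 0.86). Without 20 min replicate 1 the value at 20 min was 1.62.

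The ratio of alcohol dehydrogenase 1 to pyruvate decarboxylase, both in FPKM, was 1.79, 1.46 and 1.96 in control replicates 1, 2 and 3, then 8.61, 3.71 and 7.88 after 20 min, 2.19, 3.13 and 3.43 after 40 min, and lastly 2.89, 1.52 and 1.45 after 80 min. The ratio was above every control plant in all 3 plants at 20 min, also in replicate 2, where both transcripts were below the controls. It was also above every control plant at 40 min, and at 80 min it was below every control plant only in replicate 3 and above them only in replicate 1.

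The second alcohol dehydrogenase (Lalb_Chr17g0347481), named putative in the table and close in listed protein length to the first (388 and 380 amino acids, the unit being read from the values), followed another pattern. It had 31.2, 35.6 and 38.5 CPM in control replicates 1, 2 and 3, 8.66, 17.6 and 12.6 CPM at 20 min, 17.0, 20.5 and 19.4 CPM at 40 min, and 22.7, 28.4 and 17.3 CPM at 80 min. It was lower than every control plant in every plant at all 3 times, and at 20 min its highest plant was replicate 2. Its log2 fold change against control stood at -1.44 at 20 min (SE 0.28), -0.89 at 40 min (SE 0.28) and -0.62 at 80 min (SE 0.28). In FPKM the first dehydrogenase exceeded it 2559 and 1158 times in 20 min replicates 1 and 3, against 44.2 to 105.5 times in the control plants.

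Non-symbiotic hemoglobin 1 (Lalb_Chr01g0002841) had 429, 645 and 364 CPM in control replicates 1, 2 and 3, 181, 184 and 301 CPM at 20 min, 150.1, 118 and 214 CPM at 40 min, and 416, 469 and 235 CPM at 80 min. All plants at 20 and at 40 min stood below the lowest control, and 2 of the 3 plants at 80 min stood within the control range. Fitted against control, the log2 fold change was -1.11 at 20 min (SE 0.36), -1.58 at 40 min (SE 0.37) and -0.36 at 80 min (SE 0.36). The gene next to it in the CNRS_Lalb_1.0 annotation, Lalb_Chr01g0002851, is named as a globin domain protein too, and it had 0 to 99 reads per library, against 6924 to 49266 for the hemoglobin.

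The 3 genes named putative hypoxia induced protein encode short proteins of 73 to 98 listed amino acids and differed in their patterns. The gene on chromosome 8 (Lalb_Chr08g0231331) had 272, 353 and 188 CPM in control replicates 1, 2 and 3, 1496, 2.55 and 752 CPM at 20 min, 15.5, 11.0 and 49.2 CPM at 40 min, and 214, 208 and 55.2 CPM at 80 min. At 20 min replicates 1 and 3 were above all controls and replicate 2, with 96 reads, was far below them, a range of 588-fold between the highest and lowest plant of a group. All plants at 40 min were below the lowest control, and at 80 min only replicate 3 was. The log2 fold change against control was 1.47 at 20 min (SE 1.33), -3.42 at 40 min (SE 1.44) and -0.77 at 80 min (SE 1.31). It was 0.48 at 20 min without 20 min replicate 1, and -4.35 at 40 min without 40 min replicate 3.

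The gene on chromosome 4 (Lalb_Chr04g0250311) had 5383 or more reads in 2 plants and 0 to 112 in the other 10. It had 112, 81 and 50 reads in control replicates 1, 2 and 3, 9554, 0 and 5383 reads at 20 min, 0, 8 and 0 reads at 40 min, and 41, 41 and 9 reads at 80 min. In CPM these were 2.18, 1.44 and 0.801 in controls, then 144, 0 and 70.1 after 20 min, 0, 0.119 and 0 after 40 min, and lastly 0.469, 0.390 and 0.126 after 80 min. Set against a count of 3 reads in 20 min replicate 2 (0.0796 CPM), replicates 1 and 3 stood at least 1815-fold and at least 881.5-fold higher. All plants at 40 and at 80 min stood below the lowest control. Its fitted log2 fold change against control stood at 5.60 at 20 min (SE 1.92), -5.17 at 40 min (SE 2.08) and -2.15 at 80 min (SE 1.69). DESeq2 gave 5.57, -5.23 and -2.18 at the same times. Leaving out 20 min replicate 1 took the edgeR value at 20 min to 4.58. Leaving out 40 min replicate 2, the plant of its group with reads, took the edgeR value at 40 min to -9.71. That last value depends on the prior count, since the plants left at 40 min had 0 reads.

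The gene on chromosome 2 (Lalb_Chr02g0148071) had 144, 169 and 83.4 CPM in control replicates 1, 2 and 3, 42.6, 20.3 and 58.1 CPM at 20 min, 25.4, 22.6 and 46.7 CPM at 40 min, and 81.1, 86.7 and 42.1 CPM at 80 min. It was below the lowest control in every plant at 20 and at 40 min, and it overlapped the controls at 80 min through replicate 2. Its log2 fold change against control stood at -1.71 at 20 min (SE 0.47), -2.07 at 40 min (SE 0.47) and -0.92 at 80 min (SE 0.46). Within a plant, the chromosome 8 gene stood at 32.0, 0.113 and 11.8 times the chromosome 2 gene in FPKM in 20 min replicates 1, 2 and 3, against 1.72, 1.90 and 2.05 times in the controls. At 40 min the same ratio was 0.555, 0.444 and 0.961, below every control plant, and at 80 min it was 2.41, 2.19 and 1.20, on both sides of the controls.

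The cysteine dioxygenase (Lalb_Chr06g0175451) had 114, 122 and 53.6 CPM in control replicates 1, 2 and 3, 39.4, 18.0 and 32.6 CPM at 20 min, 11.9, 10.4 and 16.1 CPM at 40 min, and 53.8, 38.7 and 28.7 CPM at 80 min. All plants at 20 and at 40 min were below the lowest control, and at 80 min only replicate 1 reached it. Against control, its log2 fold change was -1.69 at 20 min (SE 0.40), -2.92 at 40 min (SE 0.42) and -1.26 at 80 min (SE 0.39). No annotated gene of CNRS_Lalb_1.0 overlapped this gene or any of the other 7.

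**Figure D1:**
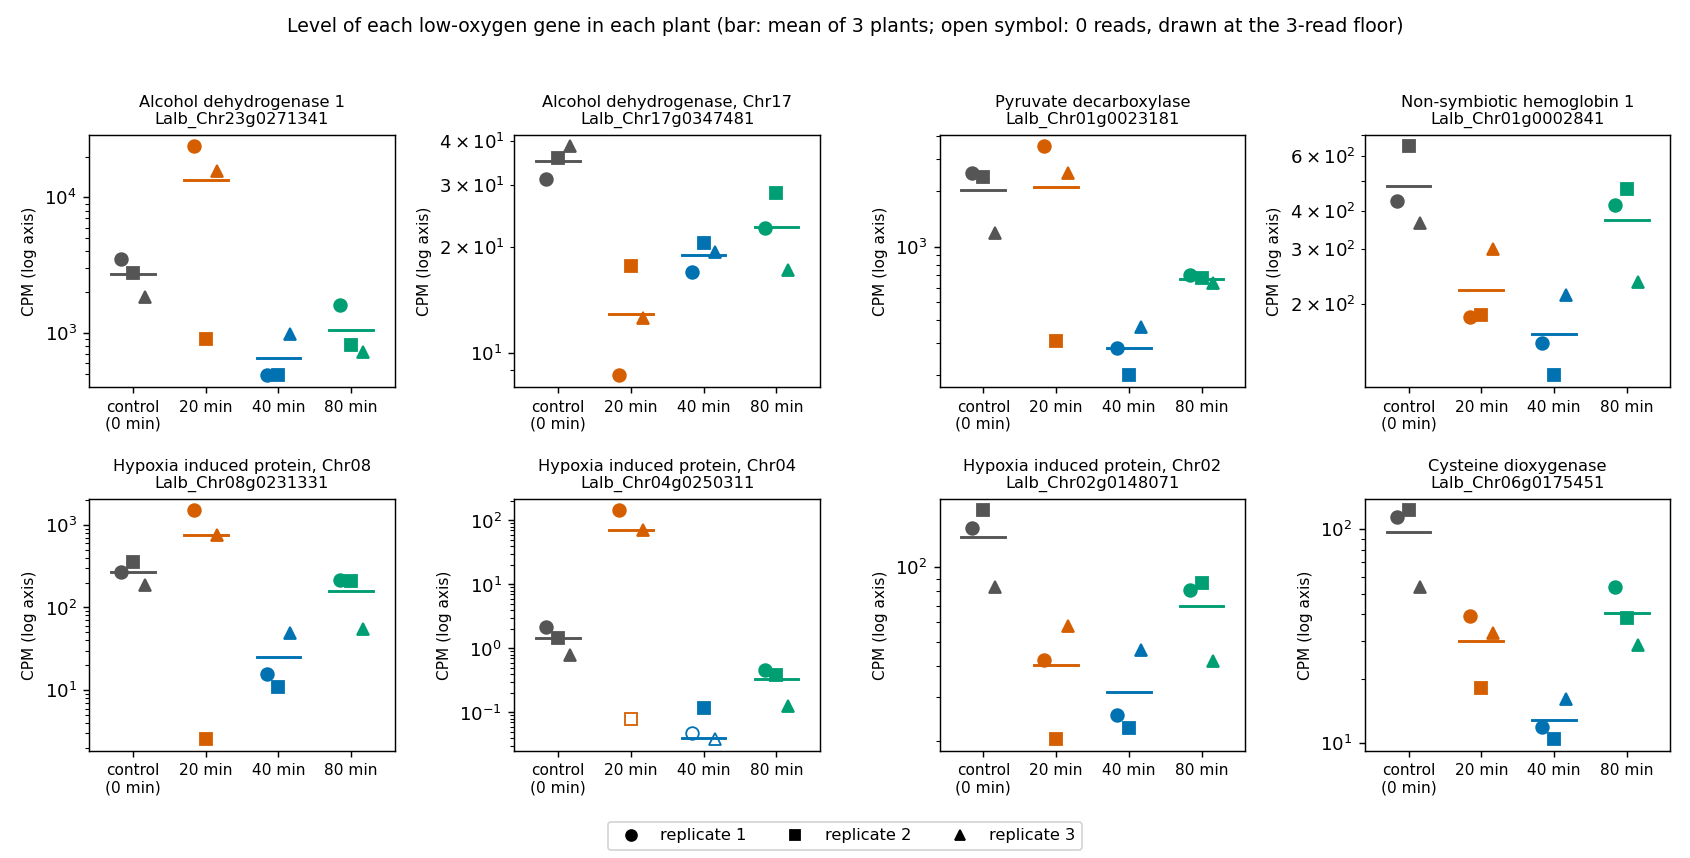
Level of each of the 8 genes in every plant, in CPM on a log axis, for control (0 min) and 20, 40 and 80 min of sucrose. Each symbol is 1 plant, its shape gives the replicate number, the bar is the mean of 3 plants, and an open symbol is a library with 0 reads drawn at 3 reads. Alcohol dehydrogenase 1, pyruvate decarboxylase and the hypoxia induced proteins on chromosomes 8 and 4 have replicates 1 and 3 at 20 min above all controls and replicate 2 below them, and all 8 genes lie below every control at 40 min. For pyruvate decarboxylase, replicate 3 at 20 min is above control replicate 1 by little, at 2527 against 2507 CPM.

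At 20 min, 4 of the 8 genes had a fold change above 0 and 4 below, with a median log2 fold change of -0.53, against 0.06 over all genes tested. The second alcohol dehydrogenase, the hemoglobin, the chromosome 2 hypoxia induced protein and the cysteine dioxygenase did not overlap the controls and were lower, 4 of 8 where 10.8% of all genes were. None of the other 4 was free of overlap, since replicate 2 lay on the other side of the controls from replicates 1 and 3. The edgeR quasi-likelihood test called 0 of 8 after Benjamini-Hochberg adjustment (0.00345% of all genes were called higher and 0.0207% lower). At an unadjusted p below 0.05 it had 2 higher and 4 lower (7.32% and 5.28% of all genes), and DESeq2 called 3 of 8, all lower (4.09% of all genes in either direction). Without 20 min replicate 2, edgeR called 3, alcohol dehydrogenase 1 and the chromosome 4 gene higher and the second dehydrogenase lower, where it called 3.43% of all genes.

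At 40 min all 8 genes had a fold change below 0, with a median of -2.46 against 0.08 over all genes tested. None of the 8 overlapped the controls, and all 8 were lower, where 8.35% of all genes were. EdgeR called 1 of 8, the cysteine dioxygenase, lower (0.0863% of all genes), all 8 were lower at an unadjusted p below 0.05 (3.92%), and DESeq2 called 4 of 8 lower (1.99% in either direction). The call of the cysteine dioxygenase was kept without control replicate 3, without 20 min replicate 2 and without 80 min replicate 3, and was lost without any one of the other 9 libraries, under which 0 of 8 were called. Without 20 min replicate 2, pyruvate decarboxylase was called lower as well, which made 2 of 8 (0.528% of all genes).

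At 80 min all 8 fold changes were again below 0 and smaller in size than at 40 min, with a median of -1.09 against 0.12 over all genes tested. Both alcohol dehydrogenases, pyruvate decarboxylase and the chromosome 4 gene did not overlap the controls and were lower, 4 of 8 where 9.05% of all genes were. EdgeR called 0 of 8 (0.00345% of all genes were called higher and 0.00690% lower), 3 were lower at an unadjusted p below 0.05 (5.45%), and DESeq2 called 0 of 8 (2.97%). Without 20 min replicate 2 edgeR still called 0 of 8 (0.0609%). With 80 min replicate 3 left out as well, it also called 0 of 8 (5.54%). The 3 comparisons share the control libraries, and the genes were listed with these contrasts known, so nothing is read from these counts.

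**Figure D2:**
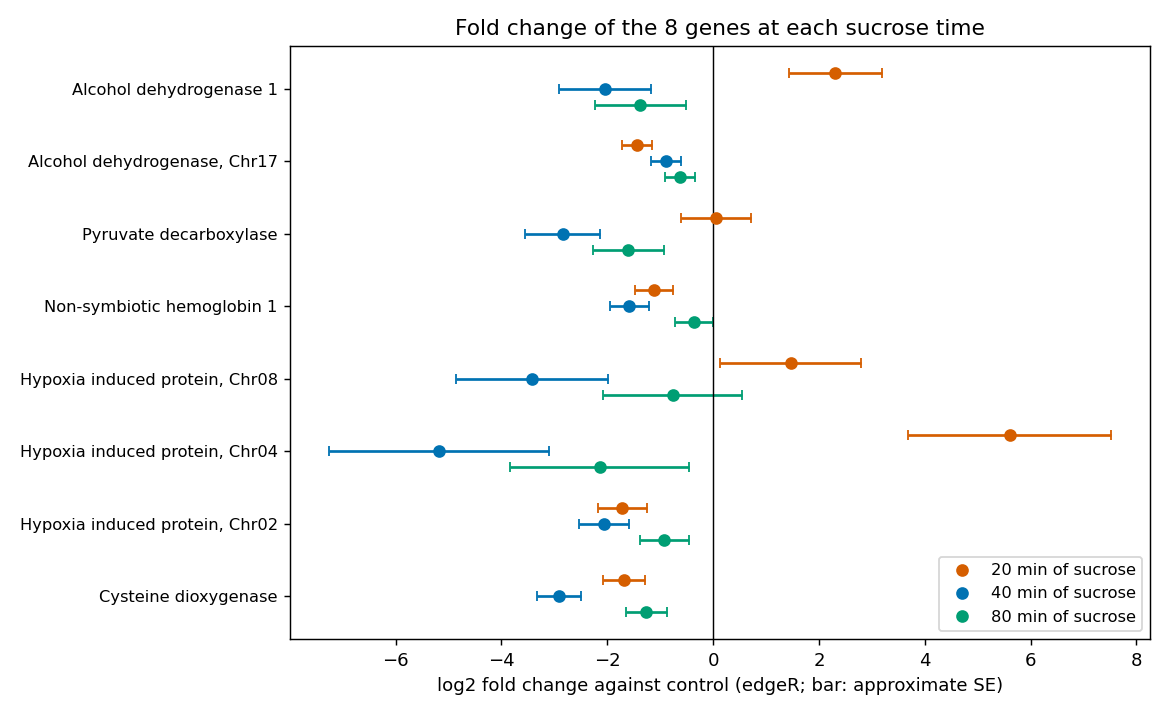
Log2 fold change of the 8 genes against control at 20, 40 and 80 min of sucrose, from edgeR over all 12 libraries. Points are fitted values and bars are approximate SE, each from 3 plants per group. All 8 points at 40 and 80 min lie below 0, while at 20 min the points run from -1.71 to 5.60 and the widest bars are those of the hypoxia induced proteins on chromosomes 4 and 8.

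The authors' deposited table, made with DESeq2, gives adjusted p-values below 0.05 at 20 min for the second alcohol dehydrogenase (log2 fold change -1.46), the chromosome 2 gene (-1.74) and the cysteine dioxygenase (-1.72). By that rule 2.03% of all genes with an adjusted p in the authors' deposited table were lower at 20 min, 1.50% at 40 min and 2.04% at 80 min. At 40 min the authors' deposited table has 4 of the 8 lower, pyruvate decarboxylase (-2.88), the hemoglobin (-1.61), the chromosome 2 gene (-2.10) and the cysteine dioxygenase (-2.95), and at 80 min it has 0. Alcohol dehydrogenase 1 does not pass in the authors' deposited table at any time, with 2.28, -2.08 and -1.40 at 20, 40 and 80 min. For the 8 genes these log2 fold changes are the same as those of the DESeq2 run above, made on the same counts. The deposited calls are therefore not a second result beside that run.

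The sucrose times were also set against each other. The control libraries are on neither side of these comparisons, though they enter the fit behind the SE and p-values, and the comparisons share sucrose libraries with the contrasts known when the genes were listed, so they are not independent of the choice. At 40 min against 20 min, alcohol dehydrogenase 1 averaged 656 ± 290 CPM at 40 min and 13469 ± 11620 CPM at 20 min (SD, n = 3 each), a log2 difference of -4.36 (SE 0.97, edgeR adjusted p = 0.214). Pyruvate decarboxylase differed by -2.90 (SE 0.71, edgeR adjusted p = 0.214) and the chromosome 8 gene by -4.89 (SE 1.54, edgeR adjusted p = 0.251). With single libraries left out the 3 differences ran from -4.89 to -3.66, from -3.39 to -2.32 and from -5.82 to -3.90. Each of these groups overlapped, since 20 min replicate 2 stood within or below the plants at 40 min.

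EdgeR called 0 of the 8 genes at 40 min against 20 min, as it called 0 of 28980 genes in all. At an unadjusted p below 0.05 it had 5 of 8 lower (7.83% of all genes), and DESeq2 called 4 of 8 lower (4.99% in either direction), namely alcohol dehydrogenase 1, pyruvate decarboxylase and the genes on chromosomes 8 and 4. The same 4 were called by edgeR without 20 min replicate 2, where it called 4.91% of all genes. The cysteine dioxygenase was the 1 gene of the 8 whose groups did not overlap, lower at 40 min (8.93% of all genes), with a difference of -1.23 (SE 0.39, edgeR adjusted p = 0.256).

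At 80 min against 40 min all 8 differences were above 0, with a median of 1.23 against 0.07 over all genes tested. The decarboxylase, the hemoglobin, the chromosome 8 and chromosome 4 genes and the cysteine dioxygenase did not overlap and were higher at 80 min, 5 of 8 where 5.08% of all genes were. For the chromosome 4 gene this rests on 9 reads in 80 min replicate 3, against 8 reads in 40 min replicate 2. The hemoglobin averaged 373 ± 123 CPM at 80 min and 160.4 ± 48.8 CPM at 40 min, a difference of 1.22 (SE 0.36, edgeR adjusted p = 0.899). The cysteine dioxygenase averaged 40.4 ± 12.7 CPM at 80 min and 12.8 ± 2.97 CPM at 40 min, a difference of 1.65 (SE 0.40, edgeR adjusted p = 0.730). EdgeR called 0 of 8 and 0 of all genes, 3 of 8 were higher at an unadjusted p below 0.05 (2.05% of all genes), and DESeq2 called 1, the cysteine dioxygenase (0.860%). EdgeR called the same gene once 20 min replicate 2 and 80 min replicate 3 were both left out (2.27%).

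At 80 min against 20 min the plants of both groups overlapped for all 8 genes, where 7.97% of all genes were higher and 7.85% lower without overlap. EdgeR called 0 of 8 and 0 of all genes, 1 was higher and 3 were lower at an unadjusted p below 0.05 (9.51% and 7.79% of all genes), and DESeq2 called 2 lower, alcohol dehydrogenase 1 and the chromosome 4 gene (7.15%). The difference of alcohol dehydrogenase 1 was -3.69 (SE 0.94, edgeR adjusted p = 0.158), and that of the second alcohol dehydrogenase was 0.81 (SE 0.28, edgeR adjusted p = 0.207). Without 20 min replicate 2, edgeR called 3 of 8 lower at 80 min, alcohol dehydrogenase 1, pyruvate decarboxylase and the chromosome 4 gene (3.30% of all genes).

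The spread between the plants at 20 min was wide for some of the 8 genes and not for others. Between the 3 plants at 20 min the SD of log2 CPM was 6.81 for the chromosome 4 gene, 5.04 for the chromosome 8 gene, 2.57 for alcohol dehydrogenase 1 and 1.90 for pyruvate decarboxylase, against a median of 0.54 over all genes tested. The other 4 genes had an SD of 0.42 to 0.78 at 20 min. In the control group the 8 genes ranged between 0.15 and 0.71, against a median of 0.36 over all genes.

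Across the 12 plants, the genes fell into sets with similar profiles of log2 CPM. Alcohol dehydrogenase 1, pyruvate decarboxylase and the chromosome 8 and 4 genes had Pearson correlations of 0.797 to 0.943 among themselves (Spearman 0.846 to 0.951), and the hemoglobin, the chromosome 2 gene and the cysteine dioxygenase had 0.886 to 0.941 (Spearman 0.825 to 0.916). Between these sets the correlations ran from 0.246 to 0.806, and the second alcohol dehydrogenase had -0.410 to -0.0304 with the first set. When 20 min replicates 1 and 3 were left out, the correlations over the remaining 10 plants were 0.707 to 0.918 within the first set, 0.933 to 0.948 within the second, 0.806 to 0.979 between the sets and 0.766 to 0.864 between the second dehydrogenase and the first set. Without those 2 plants the first set was thus no more alike within itself than with the second. All points share libraries and the group structure, and the sets were described after the values were seen, so these are descriptions with no test.

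**Figure D3:**
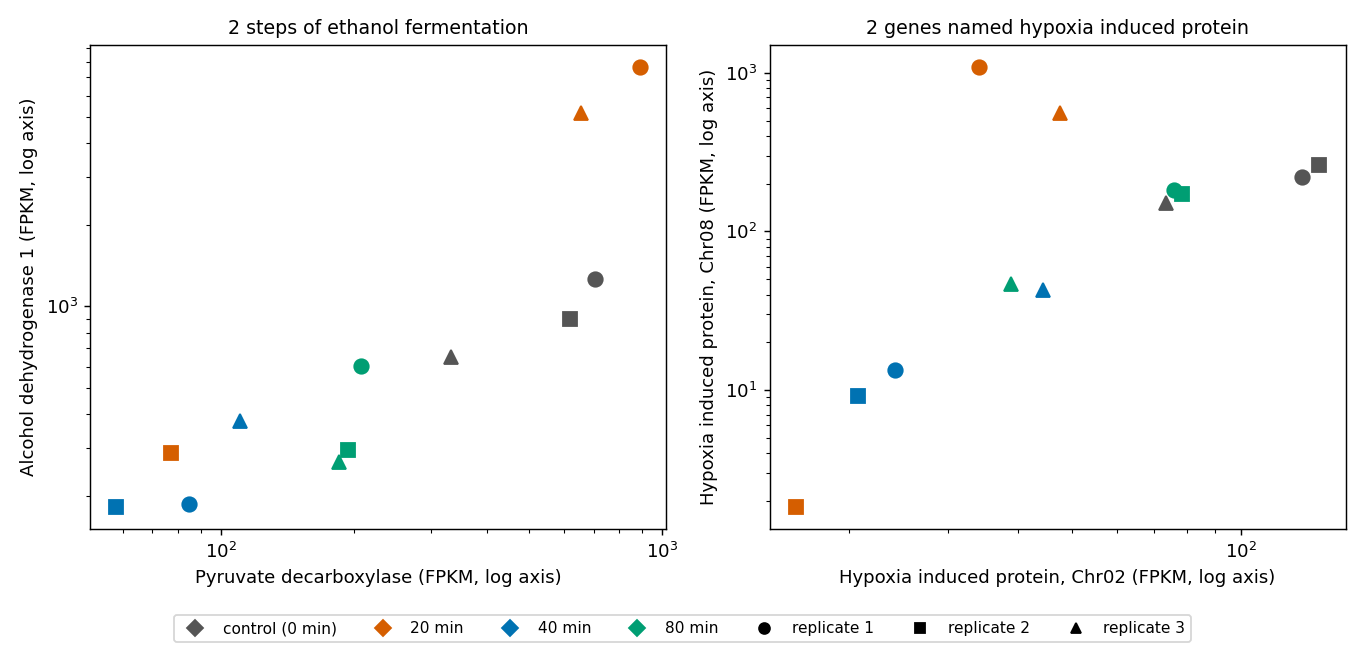
Left, alcohol dehydrogenase 1 against pyruvate decarboxylase; right, the hypoxia induced protein on chromosome 8 against the one on chromosome 2, in FPKM on log axes, with 1 symbol per plant, colour for the group and shape for the replicate. In 20 min replicates 1 and 3 the dehydrogenase stands at 8.61 and 7.88 times the decarboxylase and the chromosome 8 gene at 32.0 and 11.8 times the chromosome 2 gene, apart from the other 10 plants.

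The 20 min plants with high alcohol dehydrogenase 1 also had high sums of transcripts with names of green tissue. The summed level of 111 genes named for photosystems, chlorophyll a-b binding proteins or the RuBisCO small subunit was 1958, 570.2 and 1318 CPM in 20 min replicates 1, 2 and 3, against 565 to 729 CPM in the controls. It was 349 to 683 CPM at 40 min and 459 to 555 CPM at 80 min, and 84 to 95 of the 111 genes had reads in any library, with 0 of them at 0 in all. The part of green-tissue transcripts in the 20 min values was not tested. A list matched by the letters cyclin, by DNA replication licensing and by proliferating cell nuclear antigen held 129 genes, of which 6 were ribosome-recycling factors or calcyclin-binding proteins. Without those 6, left out after the data were seen, the summed level of 123 genes was 2249 to 2410 CPM in the controls, 2250 to 2489 CPM at 20 min, 2890.0, 2237 and 2712 CPM in 40 min replicates 1, 2 and 3, and 3319, 3205 and 2315 CPM in 80 min replicates 1, 2 and 3. Replicates 1 and 3 at 40 min and replicates 1 and 2 at 80 min stood above every control in this sum, at times when all 8 genes had fold changes below 0, and its part in those values was not tested.

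Other genes of the same pathways were taken by words in their protein names, whatever their values, and 66 were found, of which 57 were tested. They hold 18 further fermentation genes, 15 genes of oxygen sensing and oxygen binding and 24 of other low-oxygen responses. EdgeR called 0 of the 57 at 20, 40 and 80 min against control. At an unadjusted p below 0.05, 1 was higher and 5 lower at 20 min (7.32% and 5.28% of all genes), 10 were lower at 40 min (3.92%) and 8 were lower at 80 min (5.45%). DESeq2 called 3, 9 and 4 of the 57 at 20, 40 and 80 min, where it called 4.09%, 1.99% and 2.97% of all genes. Their median log2 fold changes were -0.21, -0.12 and -0.32 at 20, 40 and 80 min. With no overlap with the controls, 11, 15 and 18 of the 57 were lower (10.8%, 8.35% and 9.05% of all genes) and 3, 1 and 2 were higher (10.8%, 6.90% and 8.62%). With both libraries that stood apart left out, a choice made after the data were seen, edgeR called 10, 8 and 5 of the 57 at 20, 40 and 80 min, where it called 8.16%, 0.846% and 5.54% of all genes.

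**Figure D4:**
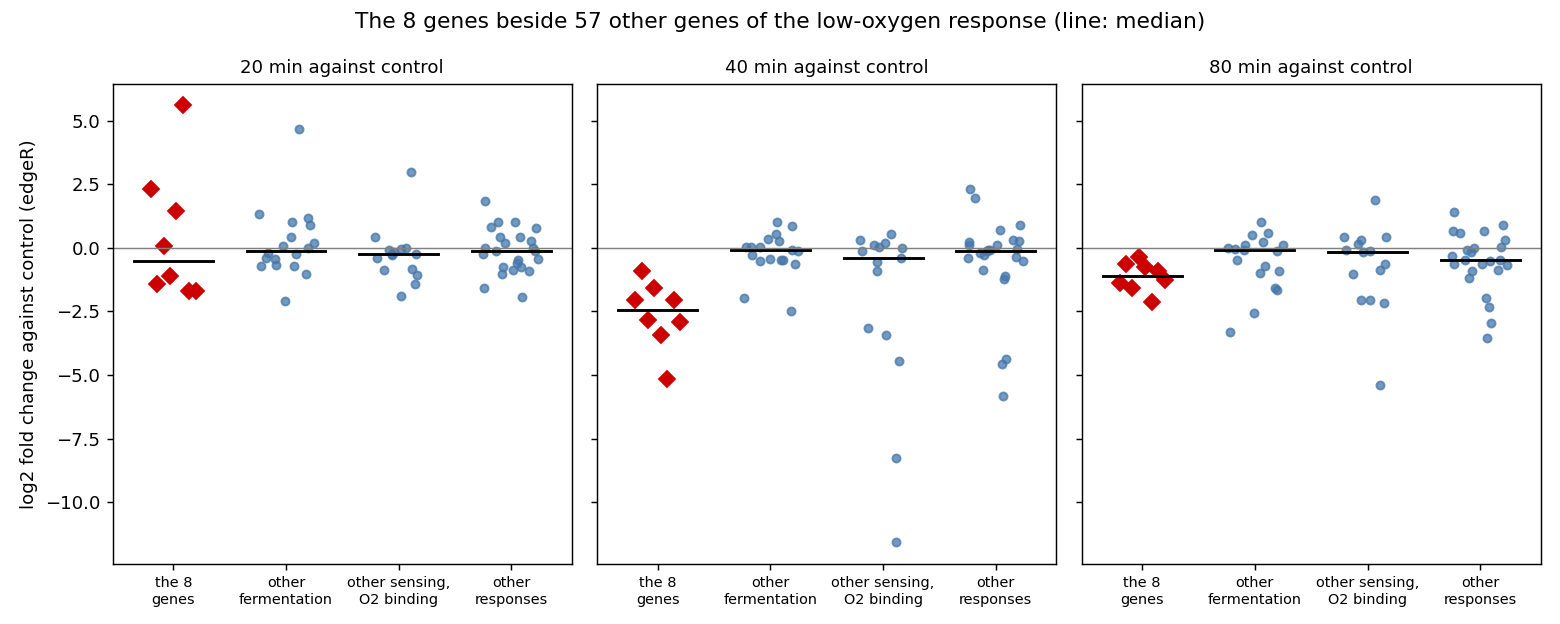
Log2 fold change against control (edgeR) of the 8 genes, as diamonds, beside 57 other genes of fermentation, of oxygen sensing and binding and of other low-oxygen responses, as circles, at 20, 40 and 80 min. Lines are medians. At 40 min the median of the 8 genes is -2.46, and the medians of the other sets lie between -0.40 and -0.10. Single genes run from -5.17 to -0.89 among the 8 and from -11.6 to 2.33 among the 57 others. The lowest of the 8 is the chromosome 4 gene, with 0, 8 and 0 reads in 40 min replicates 1, 2 and 3. The lowest of the 57 is a cysteine dioxygenase without reads in any plant at 40 min, so the size of its value depends on the prior count.

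Among the other fermentation genes, L-lactate dehydrogenase (Lalb_Chr05g0225731), which makes lactate from pyruvate, had 1038, 869.7 and 409.9 CPM in control replicates 1, 2 and 3, 563, 126 and 462 CPM at 20 min, 136, 123 and 154 CPM at 40 min, and 292, 291 and 202 CPM at 80 min. It was below every control at 40 and at 80 min and overlapped the controls at 20 min, with 20 min replicate 2 the lowest of its group. A second pyruvate decarboxylase (Lalb_Chr07g0191401) had 321, 328 and 97.2 CPM in controls, 1076.5, 21.1 and 768 CPM at 20 min, 59.8, 9.04 and 122 CPM at 40 min, and 449, 281 and 12.8 CPM at 80 min. It overlapped the controls at all 3 times, with 20 min replicate 2, 40 min replicates 1 and 2 and 80 min replicate 3 below every control. An alanine transaminase (Lalb_Chr17g0343231), which makes alanine from pyruvate, had 309, 324 and 268 CPM in controls, 630.4, 178 and 882 CPM at 20 min, 183, 204 and 196 CPM at 40 min, and 175, 167 and 136 CPM at 80 min. It was above every control in 20 min replicates 1 and 3, and it was below every control in replicate 2 and in all plants at 40 and 80 min.

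The other cysteine dioxygenases with the highest levels stood lower at 40 min as well. Lalb_Chr21g0317271 had 357, 459 and 153 CPM in control replicates 1, 2 and 3, 221, 3.26 and 138 CPM at 20 min, 11.0, 5.65 and 27.2 CPM at 40 min, and 85.5, 84.7 and 43.6 CPM at 80 min. Lalb_Chr21g0318921 had 201, 229 and 118 CPM in controls, 146, 26.9 and 126 CPM at 20 min, 19.9, 13.5 and 27.9 CPM at 40 min, and 94.7, 97.1 and 76.2 CPM at 80 min. Both were below every control in all plants at 40 and 80 min, and both had their lowest 20 min value in replicate 2, as the cysteine dioxygenase on chromosome 6 did. A leghemoglobin reductase (Lalb_Chr07g0181861), an enzyme that reduces the hemoglobin of root nodules, had 254 to 295 CPM in controls, 216 to 284 CPM at 20 min, 229 to 306 CPM at 40 min and 167 to 289.8 CPM at 80 min, and it overlapped the controls at all 3 times.

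Of the other low-oxygen responses, sucrose synthase (Lalb_Chr11g0073991), which cleaves sucrose, had 993, 1092.5 and 716 CPM in control replicates 1, 2 and 3, 1538.5, 772 and 1491 CPM at 20 min, 182, 573 and 450.2 CPM at 40 min, and 209, 235 and 114 CPM at 80 min. All plants at 40 and at 80 min were below every control, with log2 fold changes of -1.22 (SE 0.45, edgeR adjusted p = 0.689) and -2.33 (SE 0.47, edgeR adjusted p = 0.198). A universal stress protein (Lalb_Chr02g0147861) had 784, 617 and 300.2 CPM in controls, 599.8, 19.8 and 495 CPM at 20 min, 23.2, 10.7 and 38.2 CPM at 40 min, and 182, 163 and 91.2 CPM at 80 min. It was below every control at 40 and at 80 min, and at 20 min its replicate 2 stood apart from the others. A further one (Lalb_Chr03g0042751) had 428 to 658 CPM in controls, 520.1 to 709 CPM at 20 min, 290.2 to 458 CPM at 40 min and 295 to 421 CPM at 80 min, and it was below every control only at 80 min.

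The genes most like each of the 8 were sought among 21490 tested genes with a mean of at least 2 CPM, by Pearson correlation of log2 CPM over the 12 libraries. Alcohol dehydrogenase 1 was closest to a putative procollagen-proline 4-dioxygenase (Lalb_Chr06g0164631, r = 0.979) and a serine/threonine protein kinase (Lalb_Chr07g0179801, r = 0.979), and pyruvate decarboxylase to a low affinity potassium transport protein (Lalb_Chr21g0305571, r = 0.981) and a trehalose 6-phosphate phosphatase (Lalb_Chr08g0241961, r = 0.981). The chromosome 8 gene was closest to an uncharacterized protein (Lalb_Chr24g0403131, r = 0.991) and to early nodulin-93 (Lalb_Chr07g0178771, r = 0.991), which put the 12 plants in the same order (Spearman 1). The chromosome 4 gene was closest to a zinc finger factor of the LSD family (Lalb_Chr16g0379171, r = 0.979) and a putative lipoprotein lipase (Lalb_Chr12g0201141, r = 0.977).

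The hemoglobin was closest to an Agenet-like domain protein (Lalb_Chr03g0029901, r = 0.947) and to the chromosome 2 hypoxia induced protein among the 8 themselves (r = 0.941). The chromosome 2 gene was closest to a mitochondrial carrier (Lalb_Chr11g0063281, r = 0.976) and a DVL peptide gene (Lalb_Chr10g0104651, r = 0.965), and the cysteine dioxygenase to an abscisic acid 8'-hydroxylase (Lalb_Chr05g0215161, r = 0.985), which breaks down that hormone, and a GTD-binding domain protein (Lalb_Chr02g0154161, r = 0.977). The second alcohol dehydrogenase was closest to a cysteine synthase (Lalb_Chr02g0148631, r = 0.963) and a putative oxidoreductase (Lalb_Chr11g0062811, r = 0.947). Spearman correlations of these pairs were 0.853 to 1. All are the highest of many, over libraries that share the group structure, and are a description with no test.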

How the data were processed

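The authors deposited whole-number read counts for each gene in each library, without normalization, per the file headers. The deposited table also holds FPKM and, per the file headers, the authors' DESeq2 output, a log2 fold change and an adjusted p-value of every sucrose time over control. It lists a length beside the protein name, read here as amino acids from its values. The submitters' processing notes name DESeq2, StringTie, HISAT2, Trimmomatic 0.32, FastQC and bcl2fastq 2.20. Which genome build was used, whether counting used the strand and what was done with reads that match more than 1 gene is not given in the sources used here. Members of gene families are uncertain to that extent, and no coordinates are given. All 33388 identifiers matched NCBI's CNRS_Lalb_1.0 table, which served for overlaps and neighbours alone.

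EdgeR 4.0.16 (R 4.3.3) was fitted to all 12 libraries by group, with filterByExpr, TMM and the robust quasi-likelihood F test (8 residual degrees of freedom, common dispersion 0.449). P-values were adjusted by Benjamini-Hochberg over 28980 genes, and a gene was called below 0.05. SE is the size of a fold change divided by the root of its F statistic. The floor of a library is 3 reads and covers counting error only. Correlations used a prior count of 2. DESeq2 1.42.0 was the second test. The fit was also run on simulated data. There all genes had the same dispersion, lower than the common dispersion of these data, so that run does not give the power of the test here. The 8 genes and the lists were chosen with earlier results of these data known. Named beside the 8 are, in each of 3 sets of other low-oxygen genes, any gene called and the 3 with the highest mean FPKM, and for each of the 8 the 2 genes with the highest correlation.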

Additional observations from a re-analysis of the deposited data

How the results depend on the processing

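The 48 log2 fold changes of the 8 genes, in 6 comparisons, were recomputed under 18 alternatives. The fit of only the libraries compared gave no value for the chromosome 4 gene at 40 min against 20 min or at 80 min against 40 min, where it did not pass the filter on low counts. Against control, 429 of 432 alternative values moved by less than the SE of the value from all 12 libraries, and 423 kept the direction. The 9 that did not keep it are all of pyruvate decarboxylase (Lalb_Chr01g0023181) at 20 min, each below 0. Its 18 alternatives there ran from -0.52 to 0.50, around 0.06 with all libraries. Between sucrose times 404 of 430 stayed on their side of the threshold, 25 passed it only under the alternative, and 1 reversed: the chromosome 2 hypoxia induced protein (Lalb_Chr02g0148071) at 40 min against 20 min, -0.35 with all libraries and 0.0075 without 20 min replicate 3, within a range of -0.75 (without 40 min replicate 3) to 0.0075 over the libraries left out. DESeq2 size factors and no filter on low counts left the number of the 8 called as it was in every comparison. DESeq2 in place of edgeR called 3 and 4 of the 8 at 20 and 40 min against control, 4 at 40 min against 20 min, 1 at 80 min against 40 min and 2 at 80 min against 20 min, and 3, 9 and 4 of the 57 other genes at 20, 40 and 80 min. At 40 min against control, the fit of only the 6 libraries compared called 0 of the 8, and so did the fit with the replicate number as a block. Correlations of the deviations of same-numbered plants ran from -0.22 to 0.16, with 3 of 18 over 0.1. Plants of different numbers were not compared in this way, so whether replicate numbers pair the plants was not tested. Nothing further is read from the call lost under the block. Leaving out single libraries gave 0 to 3 of the 8 called at 20 min against control and 0 to 2 at 40 min. It gave 0 to 4 at 40 min against 20 min and 0 to 3 at 80 min against 20 min. Without 20 min replicate 2 these counts were 3, 2, 4 and 3 (3.43%, 0.528%, 4.91% and 3.30% of all genes). Without 80 min replicate 3 the count was 1 at 80 min against 20 min (12% of all genes). For the 57 other genes, leaving out single libraries gave 0 to 3 at 20 min, 0 to 5 at 40 min and 0 to 2 at 80 min. The 3 and the 5 came without 20 min replicate 2 (3.43% and 0.528% of all genes). At 40 min 1 was called without control replicate 3 (0.196%), and at 80 min 2 were called without 80 min replicate 3 (1.56%). An alternative added after the data were seen left out 20 min replicate 2 and 80 min replicate 3 together. It called 3, 2 and 0 of the 8 at 20, 40 and 80 min against control (8.16%, 0.846% and 5.54% of all genes). The counts were 5 at 40 min against 20 min, 1 at 80 min against 40 min and 4 at 80 min against 20 min (10.7%, 2.27% and 17.8%). Of the 57 others it called 10, 8 and 5 at 20, 40 and 80 min against control. Why these counts moved was not tested beyond the libraries named. Depth limits the chromosome 4 hypoxia induced protein (Lalb_Chr04g0250311) alone among the 8, with 0 to 8 reads at 40 min.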

Other observations

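Values of further genes of these families, chosen after their values were seen, followed the split among the plants at 20 min. A putative alcohol dehydrogenase (Lalb_Chr04g0253571) had 1575, 0 and 755 reads in 20 min replicates 1, 2 and 3, against 32, 32 and 8 reads in control replicates 1, 2 and 3. A cysteine dioxygenase (Lalb_Chr14g0364741) had 5933, 16 and 3265 reads in the same 20 min plants, against 279, 382 and 276 reads in the controls, and it had 0 reads in all 3 plants at 40 min. Other members of the families did not follow it: a putative hypoxia induced protein (Lalb_Chr06g0167731) had 6.07, 5.73 and 5.21 CPM in 20 min replicates 1, 2 and 3, against 4.74, 5.06 and 7.57 CPM in the controls, and a cysteine dioxygenase (Lalb_Chr22g0356971) had 31.0, 32.3 and 30.0 CPM, against 32.8, 33.2 and 32.7 CPM.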
